A study of Saccharomyces cerevisiae with 24 samples.

Results

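The genes described here carry sulfur into the cell and through its metabolism in the budding yeast Saccharomyces cerevisiae. They are 32 of the 5449 genes measured in the series and cover sulfate uptake, sulfate activation and reduction, methionine and S-adenosylmethionine, transsulfuration, glutathione synthesis and the transcriptional regulators of the pathway. They were chosen by name from a list of symbols, and the rule uses no measured value, but the list was drawn up with earlier results of these data known. All 32 were found, each with 1 probe set, and none lay at the floor of the arrays (a group mean under log2 3), so every gene could be followed in every group.

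Transcript levels had been measured on 24 Affymetrix yeast arrays, 3 for each of 8 groups. The 4 strains were a reference strain labelled wild type and 3 deletion strains, which lacked SNF1 (snf1Δ), TOR1 (tor1Δ) or both (snf1Δtor1Δ). Each strain was grown aerobically to steady state in chemostats, with glucose limiting growth (C-lim, 10 g/L glucose) or with ammonia limiting growth (N-lim, 1 g/L ammonium sulfate). Every culture, those of the reference included, was kept at pH 5.0 and 30 °C in 0.5 L of medium and diluted at 0.1 per hour. The sources used here do not give the strain background, the marker of each deletion or the number of clones behind a strain. The same holds for the sulfate content of the C-lim medium, and ammonium sulfate is itself a source of sulfate, so limitation and sulfate supply cannot be told apart. The study compared the 4 strains under the 2 limitations to ask how the Snf1 kinase and TOR complex 1 (TORC1) act together.

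Yeast takes up sulfate, activates it with ATP, reduces it through sulfite to sulfide and joins the sulfide to a carbon chain derived from homoserine, which gives homocysteine. Homocysteine is methylated to methionine, the precursor of S-adenosylmethionine, or passes by transsulfuration to cysteine and on to glutathione. The activator Met4 drives most of these genes through the DNA-binding factors Cbf1, Met31 and Met32, and the ubiquitin ligase SCF with its F-box protein Met30 restrains Met4 when sulfur amino acids are plentiful. Snf1, the AMP-activated protein kinase of yeast, is needed for growth when glucose runs out, and Tor1 is the kinase of a form of TORC1, which couples growth to nutrients.

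Levels below are deposited log2 values, which compare 1 gene between groups and not genes with each other. Array medians lay between 7.8 and 7.99, and arrays of 1 group correlated over all genes with r between 0.993 and 0.999. The labels of the strains were checked on the deleted genes: SNF1 and TOR1 lay at the floor in all groups that lack them, SNF1 at least 53.7-fold and TOR1 at least 15.4-fold below the reference in C-lim. Differences were tested with limma over all 5449 genes with Benjamini-Hochberg adjustment, and a gene is called changed where its adjusted p was under 0.05. Each change is a difference of group means on the log2 scale with its standard error after the ± sign, from 3 arrays a group. The arrays are labelled biological replicates. Their small number limits the precision.

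Between N-lim and C-lim in the reference strain, 30 of the 32 sulfur genes changed, 22 higher and 8 lower in N-lim. The background was high, since 67.2% of all genes were called in this comparison, 41.5% higher and 25.7% lower. The median change of the sulfur genes was 0.315 against 0.078 for all genes. Centring each array on its median moved that median of all genes to -0.0277 and left 19 of the sulfur genes higher and 8 lower. MET4 and MET32 were the members that did not pass. Below, a call is said to be lost where its adjusted p came to 0.05 or more under another setting of the processing or with 1 array left out, and the highest such p is given. Where the replicate number as a block is named, the fit held only the arrays of the groups compared, so it differs in both respects. In whole cultures such as these, fewer cells expressing a gene and less RNA per cell cannot be told apart.

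The same contrast of media called 19 sulfur genes in snf1Δ, 9 higher and 10 lower (55.4% of all genes called, 32.4% higher and 23% lower), or 7 higher and 15 lower with each array centred on its median. It called 24 in tor1Δ, 18 higher and 6 lower (64.9% of all genes, 37.4% higher and 27.5% lower), and 22 in snf1Δtor1Δ, 13 higher and 9 lower (58.6% of all genes, 35.3% higher and 23.2% lower). The median change of the sulfur genes was 0.28 in tor1Δ, 0.102 in snf1Δtor1Δ and -0.0695 in snf1Δ, against 0.0463, 0.0617 and 0.0408 for all genes.

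Against the reference in C-lim, snf1Δ had 25 sulfur genes changed, 22 higher and 3 lower, where 62.1% of all genes were called, 40.5% higher and 21.6% lower. With each array centred, 19 were higher and 4 lower. Deletion of TOR1 alone changed 1 sulfur gene in C-lim, STR3, which was lower in a call described below as lost, where 1.06% of all genes were called (0.606% higher and 0.459% lower), and 4 sulfur genes had an unadjusted p under 0.05. In snf1Δtor1Δ 18 were higher and 7 lower in C-lim (61.4% of all genes called, 42.7% higher and 18.8% lower). These comparisons share the C-lim arrays of the reference with the comparison of media above. That group had the widest spread of the 8, with a median SD of 0.137 over the sulfur genes and 0.116 over all genes. In the other groups the median SD of the sulfur genes ran from 0.0517 to 0.111. A comparison without those arrays, snf1Δtor1Δ against tor1Δ in C-lim, was added after the data were seen and called 20 sulfur genes higher and 7 lower (56% of all genes called, 37.3% higher and 18.7% lower).

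Under N-lim fewer sulfur genes were called in snf1Δ and snf1Δtor1Δ than in C-lim, and more in tor1Δ. Against the reference, 9 were called in snf1Δ, 4 higher and 5 lower, where 31.1% of all genes were called (14.1% higher and 17% lower). In tor1Δ 5 were called, 1 higher and 4 lower, where 2.92% of all genes were (0.716% higher and 2.2% lower), and of these 5 calls the one on SUL1 was kept in every fit, while those on CYS4, MET2, MET28 and MET31 were lost in some. In snf1Δtor1Δ 10 were called, 4 higher and 6 lower, where 40.3% of all genes were (23.9% higher and 16.4% lower). With each array centred, snf1Δtor1Δ had 3 higher and 8 lower. The heat map of changes by gene and comparison shows these calls together.

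**Figure D1:**
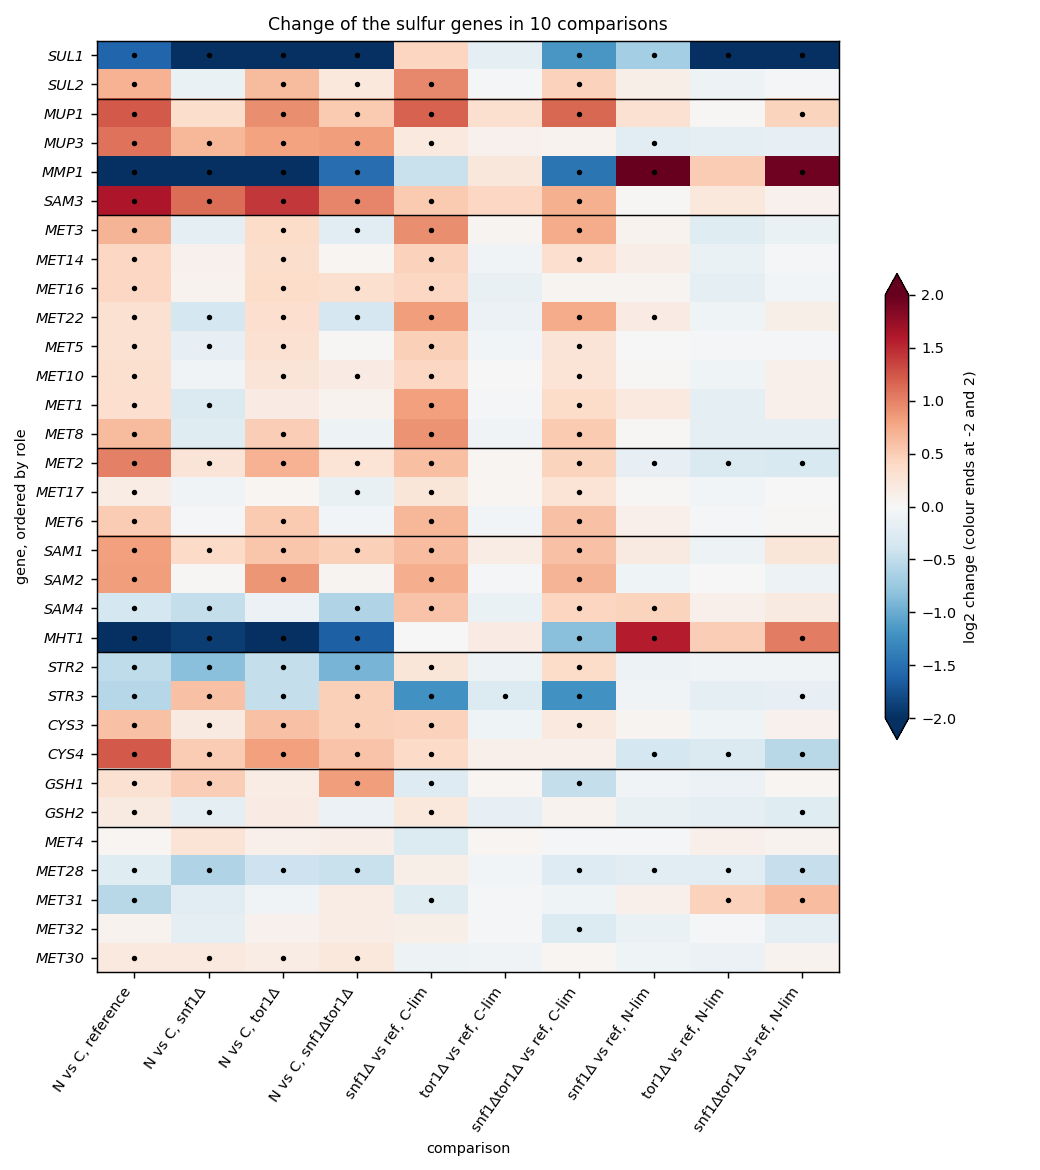
Log2 change (colour) of the 32 sulfur genes, in rows ordered by role, in 10 comparisons of group means with 3 arrays a group; a dot marks an adjusted p under 0.05 and the colour scale ends at -2 and 2. In C-lim snf1Δ had 22 genes higher and 3 lower than the reference, and tor1Δ had 1 gene called, STR3.

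Sulfate enters yeast through a pair of high-affinity permeases, SUL1 (YBR294W) and SUL2 (YLR092W), and their transcripts behaved differently. In C-lim, SUL1 was at 10.86, 11.22 and 10.99 in the reference, at 11.69, 11.24 and 11.43 in snf1Δ, at 11, 10.75 and 10.74 in tor1Δ and at 9.80, 9.53 and 10.22 in snf1Δtor1Δ. In N-lim, SUL1 was at 9.44, 9.49 and 9.39 in the reference, at 8.77, 8.83 and 8.70 in snf1Δ, at 6.44, 7.36 and 7.25 in tor1Δ and at 6.99, 6.79 and 6.998 in snf1Δtor1Δ. Every N-lim array lay below every C-lim array, and in N-lim the arrays of tor1Δ and snf1Δtor1Δ overlapped each other and lay far below those of snf1Δ and the reference.

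SUL1 fell from C-lim to N-lim in all 4 strains, with a change of -1.58 ± 0.19 (adjusted p = 8.72e-07) in the reference, -2.69 in snf1Δ, -3.81 in tor1Δ and -2.92 in snf1Δtor1Δ. In N-lim it was 5.37-fold lower in tor1Δ than in the reference, a change of -2.42 ± 0.19 (adjusted p = 9e-07), and snf1Δ was lower as well (-0.68, adjusted p = 0.0129, lost without the middle-numbered arrays at 0.0603). The SD of SUL1 in N-lim was 0.501 in tor1Δ and 0.0506 in the reference. The array with number 9 of tor1Δ in N-lim was the lowest of its group for SUL1, MMP1, MHT1 and MUP1, and without it the change of SUL1 in tor1Δ was -2.14. In C-lim the loss of TOR1 alone gave SUL1 a difference of -0.19 (adjusted p = 0.746), with an interval of -0.60 to 0.22. It was lower in snf1Δtor1Δ than in snf1Δ in C-lim, with a change of -1.60 ± 0.19 (adjusted p = 3.21e-05).

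SUL2 showed the opposite order of media in the reference. Its group mean was 8.78 in C-lim and 9.48 in N-lim, a rise of 0.70 ± 0.061 (adjusted p = 9.25e-09), and it rose by 0.64 in tor1Δ and by 0.21 in snf1Δtor1Δ, the last lost with the replicate number as a block (adjusted p = 0.0631) and with each array centred. In snf1Δ the C-lim mean was already 9.74, which was 0.96 ± 0.061 above the reference, and the change to N-lim there was -0.13 (adjusted p = 0.0787).

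**Figure D2:**
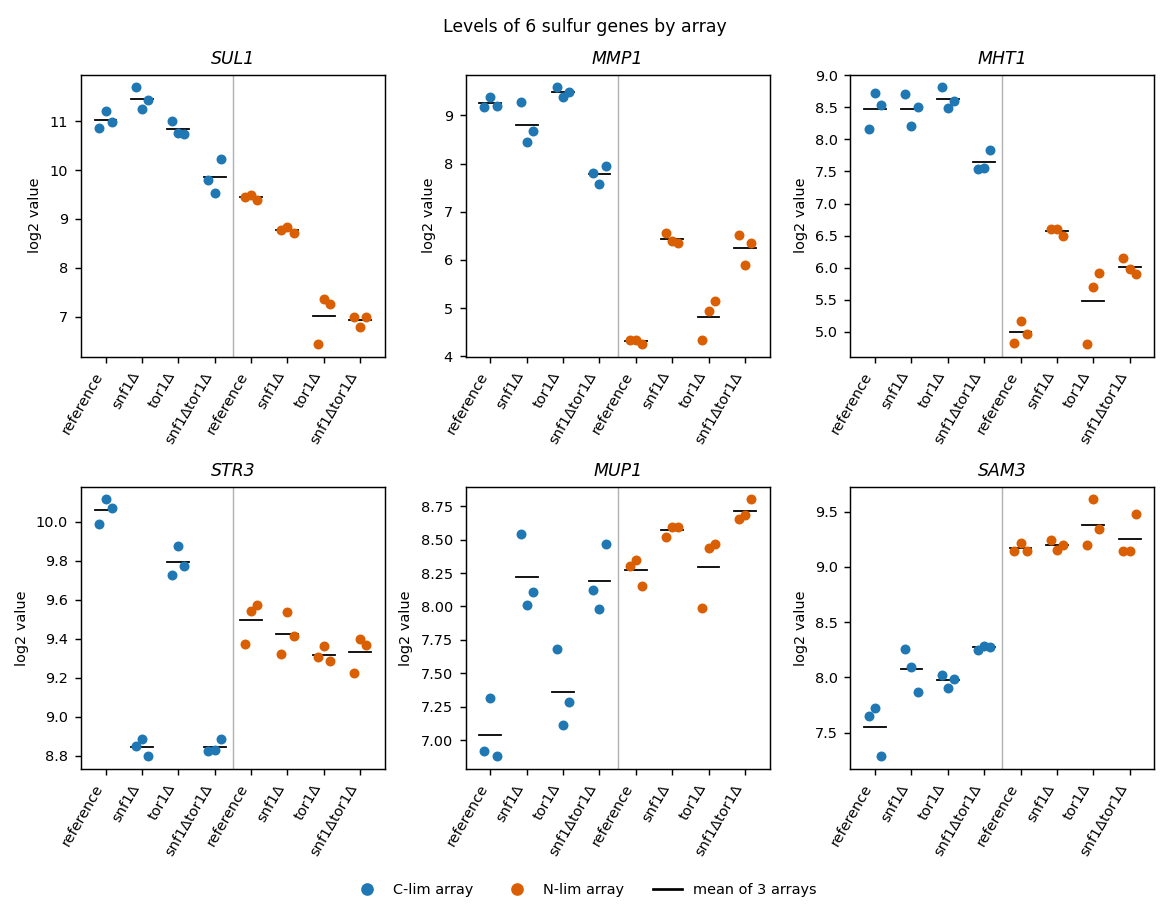
Log2 value of 6 sulfur genes on each array, by strain (x axis), with C-lim in blue on the left and N-lim in orange on the right of each panel; points are arrays and bars are means of 3. MMP1 and MHT1 drop together from C-lim to N-lim in every strain, and their N-lim means are highest where SNF1 is deleted. For MHT1 the N-lim arrays of snf1Δtor1Δ and tor1Δ overlap. STR3 is lowest in C-lim in snf1Δ and snf1Δtor1Δ.

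Among the uptake genes for organic sulfur, MMP1 (YLL061W), the permease for S-methylmethionine, had the widest range of group means of all 32 genes, 5.17 on the log2 scale. In C-lim, MMP1 was at 9.17, 9.39 and 9.19 in the reference, at 9.28, 8.45 and 8.68 in snf1Δ, at 9.58, 9.38 and 9.49 in tor1Δ and at 7.80, 7.58 and 7.95 in snf1Δtor1Δ. In N-lim, MMP1 was at 4.34, 4.34 and 4.26 in the reference, at 6.56, 6.39 and 6.35 in snf1Δ, at 4.35, 4.95 and 5.15 in tor1Δ and at 6.52, 5.90 and 6.34 in snf1Δtor1Δ. In C-lim the 3 arrays of snf1Δtor1Δ lay below all others, and in N-lim the arrays of snf1Δ and snf1Δtor1Δ overlapped each other and lay above all arrays of the reference and tor1Δ.

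MMP1 was 30.6-fold lower in N-lim than in C-lim in the reference (-4.93 ± 0.20, adjusted p = 1.71e-13). The fall was less steep in the strains without SNF1, with changes of -2.37 in snf1Δ and -1.53 in snf1Δtor1Δ against -4.67 in tor1Δ. In N-lim it was 4.35-fold higher in snf1Δ than in the reference (2.12 ± 0.20, adjusted p = 2.7e-07) and 3.84-fold higher in snf1Δtor1Δ (1.94 ± 0.20, adjusted p = 5.75e-07). In C-lim it was lower than the reference in snf1Δtor1Δ, at -1.47 ± 0.20 (adjusted p = 5.13e-06), while snf1Δ gave -0.45 (adjusted p = 0.0632).

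MHT1 (YLL062C), the methyltransferase that uses S-methylmethionine to turn homocysteine into methionine, lies next to MMP1 on chromosome XII in the RefSeq annotation of assembly R64. In C-lim, MHT1 was at 8.16, 8.72 and 8.54 in the reference, at 8.71, 8.20 and 8.50 in snf1Δ, at 8.81, 8.49 and 8.60 in tor1Δ and at 7.53, 7.56 and 7.84 in snf1Δtor1Δ. In N-lim, MHT1 was at 4.83, 5.17 and 4.97 in the reference, at 6.61, 6.60 and 6.49 in snf1Δ, at 4.81, 5.70 and 5.92 in tor1Δ and at 6.15, 5.98 and 5.90 in snf1Δtor1Δ. The order of the groups was close to that of MMP1, with snf1Δtor1Δ lowest in C-lim. In N-lim the arrays of snf1Δ were highest, and those of tor1Δ overlapped both the reference and snf1Δtor1Δ.

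MHT1 was 11.2-fold lower in N-lim than in C-lim in the reference (-3.48 ± 0.21, adjusted p = 5.62e-11). The change was -3.16 in tor1Δ, -1.91 in snf1Δ and -1.63 in snf1Δtor1Δ, all past the threshold. In N-lim it was higher than the reference in snf1Δ (1.58 ± 0.21, adjusted p = 1.73e-05) and in snf1Δtor1Δ (1.02 ± 0.21, adjusted p = 0.000887). In C-lim snf1Δ and the reference had means of 8.47 and 8.47, and the difference had an interval of -0.45 to 0.45.

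The methionine permeases moved the other way. In C-lim, MUP1 (YGR055W), the high-affinity methionine permease, was at 6.92, 7.31 and 6.88 in the reference, at 8.54, 8.01 and 8.11 in snf1Δ, at 7.68, 7.12 and 7.29 in tor1Δ and at 8.12, 7.98 and 8.46 in snf1Δtor1Δ. In N-lim, MUP1 was at 8.30, 8.35 and 8.16 in the reference, at 8.52, 8.60 and 8.60 in snf1Δ, at 7.99, 8.44 and 8.46 in tor1Δ and at 8.65, 8.68 and 8.80 in snf1Δtor1Δ. In C-lim the arrays of snf1Δ and snf1Δtor1Δ lay above those of the reference and tor1Δ, and in N-lim all 4 strains lay within a narrower band, with snf1Δ and snf1Δtor1Δ highest.

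MUP1 was higher in N-lim by 1.23 ± 0.17 (adjusted p = 3.3e-06) in the reference and by 0.94 in tor1Δ. In snf1Δ its means were 8.22 in C-lim and 8.57 in N-lim, a change that was not called. In snf1Δtor1Δ they were 8.19 and 8.71, a change that was called in the main fit. In C-lim it was 2.27-fold higher in snf1Δ than in the reference (1.18 ± 0.17, adjusted p = 7.65e-06) and 2.22-fold higher in snf1Δtor1Δ. Against tor1Δ, snf1Δtor1Δ was higher by 0.83 ± 0.17 (adjusted p = 0.000395).

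MUP3 (YHL036W), the low-affinity methionine permease, separated the media in all strains. In C-lim, MUP3 was at 8.68, 8.53 and 8.62 in the reference, at 8.94, 8.75 and 8.71 in snf1Δ, at 8.75, 8.67 and 8.67 in tor1Δ and at 8.66, 8.70 and 8.69 in snf1Δtor1Δ. In N-lim, MUP3 was at 9.74, 9.77 and 9.56 in the reference, at 9.51, 9.37 and 9.52 in snf1Δ, at 9.48, 9.55 and 9.49 in tor1Δ and at 9.54, 9.43 and 9.61 in snf1Δtor1Δ. All N-lim arrays lay above all C-lim arrays, and the rise was 1.08 ± 0.066 in the reference, 0.67 in snf1Δ, 0.81 in tor1Δ and 0.84 in snf1Δtor1Δ.

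SAM3 (YPL274W), the S-adenosylmethionine permease, also rose in N-lim in every strain. In C-lim, SAM3 was at 7.65, 7.72 and 7.29 in the reference, at 8.26, 8.09 and 7.87 in snf1Δ, at 8.02, 7.91 and 7.99 in tor1Δ and at 8.25, 8.29 and 8.28 in snf1Δtor1Δ. In N-lim, SAM3 was at 9.15, 9.22 and 9.14 in the reference, at 9.25, 9.15 and 9.19 in snf1Δ, at 9.19, 9.61 and 9.34 in tor1Δ and at 9.14, 9.14 and 9.48 in snf1Δtor1Δ. The reference was the lowest strain in C-lim, without overlap with the deletion strains, and all N-lim arrays lay above all C-lim arrays. SAM3 rose by 1.62 ± 0.12 (adjusted p = 7.77e-10) in the reference, 3.06-fold, and by 1.12, 1.41 and 0.98 in snf1Δ, tor1Δ and snf1Δtor1Δ. In C-lim it was higher than the reference by 0.52 in snf1Δ (adjusted p = 0.000917), and tor1Δ gave 0.42 (adjusted p = 0.0997).

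The 8 genes of sulfate activation and reduction rose together in N-lim in the reference, and in C-lim were higher in snf1Δ. They are MET3 (ATP sulfurylase), MET14 (adenylylsulfate kinase), MET16 (phosphoadenylylsulfate reductase), MET22 (the phosphatase that clears the nucleotide left by the reduction), MET5 and MET10 (the subunits of sulfite reductase), and MET1 and MET8 (synthesis of siroheme, the cofactor of sulfite reductase). In the reference all 8 were higher in N-lim than in C-lim, where 41.5% of all genes were, and in tor1Δ 7 of 8 were (all but MET1), where 37.4% of all genes were. In snf1Δ 0 were higher and 3 lower (MET22, MET1 and MET5), where 32.4% of all genes were higher and 23% lower. The calls on MET1 and MET5 were lost in some fits (adjusted p up to 0.0729 and 0.238). In snf1Δtor1Δ 2 were higher in N-lim than in C-lim (MET16 and MET10) and 2 lower (MET3 and MET22), where 35.3% of all genes were higher and 23.2% lower. The calls on MET3 and MET10 were lost there with the replicate number as a block (adjusted p = 0.0638 and 0.136). With only the groups compared and no block, limma gave MET3 an adjusted p of 0.0388 and MET10 one of 0.0635. In C-lim all 8 were higher in snf1Δ than in the reference, where 40.5% of all genes were, and 7 of 8 in snf1Δtor1Δ, MET16 being the exception, where 42.7% were.

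MET3, the entry step, had C-lim means of 10.05 ± 0.20 (SD, n = 3) in the reference, 10.98 ± 0.023 in snf1Δ, 10.10 ± 0.11 in tor1Δ and 10.79 ± 0.066 in snf1Δtor1Δ. In N-lim the means were 10.72, 10.79, 10.47 and 10.58. The strains that keep SNF1 were thus low in C-lim and the strains without it were near the N-lim levels in both media. MET3 was higher in snf1Δ than in the reference in C-lim by 0.93 ± 0.079 (adjusted p = 1.21e-08), and in snf1Δtor1Δ than in tor1Δ by 0.69 ± 0.079 (adjusted p = 6.61e-07).

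MET22 had the smallest adjusted p of the 8 in snf1Δ against the reference in C-lim, with a rise of 0.83 ± 0.045 (adjusted p = 2.79e-11), and rose by 0.87 in snf1Δtor1Δ against tor1Δ. Between media it turned direction with SNF1: N-lim was higher by 0.31 in the reference and 0.34 in tor1Δ, and lower in snf1Δ (-0.35) and snf1Δtor1Δ (-0.33), each with a test passed. The siroheme genes MET8 and MET1 were higher in snf1Δ in C-lim by 0.90 ± 0.11 and 0.83 ± 0.094. MET14, MET16, MET5 and MET10 were higher there by 0.46, 0.42, 0.48 and 0.42.

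**Figure D3:**
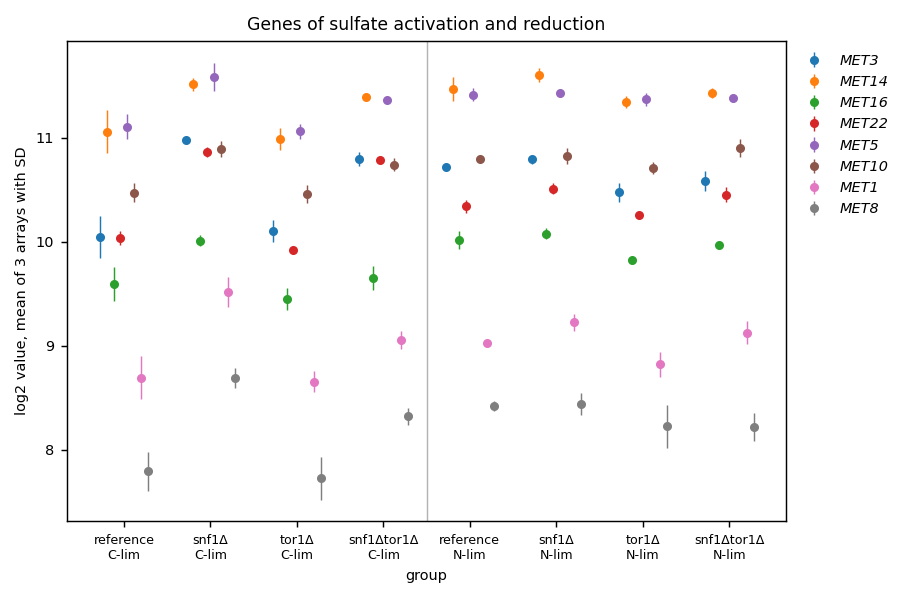
Group means of log2 values (y axis) with SD over 3 arrays for the 8 genes of sulfate activation and reduction in the 8 groups (x axis); levels are to be compared within a gene only. Each gene is lower in the reference and tor1Δ in C-lim than in snf1Δ in C-lim, as with MET3 at 10.05 and 10.10 against 10.98, and the 4 groups in N-lim lie close together.

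Under N-lim few of these genes were called between a deletion strain and the reference. In snf1Δ against the reference MET22 alone passed (0.17, adjusted p = 0.00798), a call lost with the replicate number as a block (adjusted p = 0.077) and without the middle-numbered arrays (0.212). In tor1Δ and in snf1Δtor1Δ 0 of 8 passed. Of all genes, 31.1% were called in snf1Δ, 2.92% in tor1Δ and 40.3% in snf1Δtor1Δ. In snf1Δ the interval for MET3 was -0.10 to 0.23, which lies below the difference seen in C-lim.

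The 3 genes that join sulfide to homoserine carbon and make methionine were higher in N-lim in the reference, and higher in C-lim in snf1Δ than in the reference. Of all genes, 41.5% were higher in the first comparison and 40.5% in the second. For MET17 both calls were lost in some fits (adjusted p up to 0.625 and 0.0837, and 0.15 between media with the replicate number as a block). The same fit of only the groups compared gave MET17 0.171 between media without the block. MET2 (YNL277W) acetylates homoserine, MET17 makes homocysteine from sulfide, and MET6 is methionine synthase. In C-lim, MET2 was at 9.74, 9.79 and 9.77 in the reference, at 10.38, 10.40 and 10.32 in snf1Δ, at 9.78, 9.66 and 9.98 in tor1Δ and at 10.22, 10.11 and 10.30 in snf1Δtor1Δ. In N-lim, MET2 was at 10.81, 10.72 and 10.81 in the reference, at 10.57, 10.61 and 10.68 in snf1Δ, at 10.48, 10.50 and 10.52 in tor1Δ and at 10.48, 10.51 and 10.46 in snf1Δtor1Δ. In C-lim the reference and tor1Δ overlapped and lay below snf1Δtor1Δ and snf1Δ, and in N-lim the reference lay above the 3 deletion strains.

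MET2 rose by 1.02 ± 0.06 (adjusted p = 3.14e-11) in N-lim in the reference and by 0.25 in snf1Δ. In C-lim it was 0.60 ± 0.06 (adjusted p = 9.08e-08) higher in snf1Δ than in the reference. In N-lim it was lower than the reference in snf1Δ (-0.16), tor1Δ (-0.28) and snf1Δtor1Δ (-0.30). The call in snf1Δ was lost under 5 settings (adjusted p up to 0.152), and that in tor1Δ without the middle-numbered arrays and without 1 of 3 arrays in turn (up to 0.0755). MET6 was higher in C-lim by 0.67 ± 0.056 in snf1Δ and by 0.59 ± 0.056 in snf1Δtor1Δ. MET17 had the narrowest range of group means of all 32 genes, 0.276, and rose in C-lim by 0.24 in snf1Δ.

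SAM1 (YLR180W) and SAM2 (YDR502C) encode near-identical S-adenosylmethionine synthetases, and how far their probe sets read each other's transcript was not tested. In C-lim, SAM2 was at 11.88, 12.24 and 11.94 in the reference, at 12.86, 12.69 and 12.69 in snf1Δ, at 12.06, 11.97 and 11.93 in tor1Δ and at 12.69, 12.73 and 12.68 in snf1Δtor1Δ. In N-lim, SAM2 was at 12.81, 12.89 and 12.87 in the reference, at 12.76, 12.80 and 12.76 in snf1Δ, at 12.84, 12.93 and 12.83 in tor1Δ and at 12.66, 12.78 and 12.83 in snf1Δtor1Δ. The reference and tor1Δ in C-lim were low, and the other 6 groups lay together.

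SAM2 changed between media in the strains with SNF1, by 0.84 ± 0.072 (adjusted p = 6.41e-09) in the reference and 0.88 ± 0.072 (adjusted p = 3.45e-09) in tor1Δ. In snf1Δ and snf1Δtor1Δ the intervals of the change were -0.13 to 0.17 and -0.09 to 0.21. In C-lim SAM2 was 0.73 ± 0.072 (adjusted p = 7.54e-08) higher in snf1Δ than in the reference. For SAM1, the C-lim values were at 10.71, 11.20 and 10.84 in the reference, at 11.55, 11.53 and 11.53 in snf1Δ, at 11.29, 10.91 and 10.999 in tor1Δ and at 11.43, 11.51 and 11.55 in snf1Δtor1Δ. The N-lim values of SAM1 were at 11.78, 11.66 and 11.76 in the reference, at 11.89, 11.98 and 11.88 in snf1Δ, at 11.38, 11.74 and 11.77 in tor1Δ and at 11.83, 12.04 and 12.04 in snf1Δtor1Δ. SAM1 shared the low C-lim levels of the reference and tor1Δ but rose in N-lim in all 4 strains, by 0.82 in the reference and 0.38 in snf1Δ.

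SAM4 (YPL273W), which uses S-adenosylmethionine to methylate homocysteine, lies next to SAM3 on chromosome XVI in the same annotation. It went the opposite way to its neighbour between media: SAM4 was lower in N-lim in the reference (-0.35, adjusted p = 0.0336, with overlapping arrays), in snf1Δ (-0.48) and in snf1Δtor1Δ (-0.61). SAM4 was higher in snf1Δ than in the reference in both media, with 0.57 ± 0.14 under glucose limitation and 0.45 ± 0.14 under ammonia limitation. The call between media in the reference and the call under ammonia limitation were lost in some fits (adjusted p up to 0.287 and 0.125).

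Transsulfuration runs in both directions in yeast. STR2 (cystathionine gamma-synthase) and STR3 (YGL184C, cystathionine beta-lyase) lead from cysteine to homocysteine, and CYS4 (YGR155W, cystathionine beta-synthase) and CYS3 (cystathionine gamma-lyase) lead from homocysteine to cysteine. In C-lim, STR3 was at 9.99, 10.12 and 10.07 in the reference, at 8.85, 8.88 and 8.80 in snf1Δ, at 9.73, 9.88 and 9.77 in tor1Δ and at 8.82, 8.83 and 8.89 in snf1Δtor1Δ. In N-lim, STR3 was at 9.38, 9.54 and 9.57 in the reference, at 9.32, 9.54 and 9.41 in snf1Δ, at 9.31, 9.36 and 9.28 in tor1Δ and at 9.22, 9.40 and 9.37 in snf1Δtor1Δ. In C-lim the arrays of snf1Δ and snf1Δtor1Δ overlapped each other and lay below every other array, those of the reference were highest, and in N-lim the arrays of the reference lay above those of tor1Δ while snf1Δ and snf1Δtor1Δ overlapped both.

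STR3 was 1 of 3 members lower in snf1Δ than in the reference in C-lim, with GSH1 and MET31. Of these calls the one on MET31 was lost under 4 settings (adjusted p up to 0.197). STR3 was 2.33-fold lower than the reference in C-lim (-1.22 ± 0.062, adjusted p = 1.09e-11), and also lower in snf1Δtor1Δ than in tor1Δ (-0.95 ± 0.062, adjusted p = 3.49e-10). From C-lim to N-lim it changed by -0.56 in the reference and by -0.48 in tor1Δ, and rose by 0.58 in snf1Δ and by 0.48 in snf1Δtor1Δ. In tor1Δ in C-lim it was lower than in the reference (-0.27 ± 0.062, adjusted p = 0.0429), a call that was lost under 4 other settings and in 13 of 24 fits that left out 1 array (adjusted p up to 0.537). STR2, the preceding enzyme, did not follow it: STR2 fell in N-lim in all 4 strains, with -0.51 in the reference and -0.93 in snf1Δtor1Δ, and in C-lim was higher in snf1Δ by 0.24, a call lost in some fits (adjusted p up to 0.307).

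CYS4 was the transsulfuration gene with the largest rise in N-lim in the reference. In C-lim, CYS4 was at 10.56, 10.70 and 10.50 in the reference, at 11.01, 10.92 and 10.94 in snf1Δ, at 10.76, 10.66 and 10.65 in tor1Δ and at 10.68, 10.68 and 10.70 in snf1Δtor1Δ. In N-lim, CYS4 was at 11.83, 11.87 and 11.73 in the reference, at 11.42, 11.48 and 11.50 in snf1Δ, at 11.39, 11.64 and 11.51 in tor1Δ and at 11.19, 11.22 and 11.36 in snf1Δtor1Δ. All N-lim arrays lay above all C-lim arrays, and in N-lim the reference lay above the 3 deletion strains.

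CYS4 rose by 1.23 ± 0.062 (adjusted p = 3.51e-12) in the reference and by 0.51, 0.83 and 0.57 in snf1Δ, tor1Δ and snf1Δtor1Δ. In N-lim it was lower than the reference in all 3 deletion strains, with changes of -0.34 ± 0.062, -0.30 ± 0.062 and -0.56 ± 0.062 in the same order. The call in tor1Δ was lost with only the groups compared, without the middle-numbered arrays and without 1 of 3 arrays in turn (adjusted p up to 0.132). CYS3 rose in N-lim by 0.58 in the reference and by 0.18 in snf1Δ (lost in some fits, adjusted p up to 0.287), and was higher in snf1Δ in C-lim by 0.47 ± 0.071.

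Glutathione is made in 2 steps, by GSH1 (YJL101C, gamma-glutamylcysteine synthetase) and GSH2 (glutathione synthetase). In C-lim, GSH1 was at 9.17, 8.97 and 9.03 in the reference, at 8.83, 8.63 and 8.91 in snf1Δ, at 9.10, 9.10 and 9.08 in tor1Δ and at 8.60, 8.56 and 8.56 in snf1Δtor1Δ. In N-lim, GSH1 was at 9.26, 9.30 and 9.52 in the reference, at 9.33, 9.24 and 9.29 in snf1Δ, at 9.16, 9.33 and 9.24 in tor1Δ and at 9.46, 9.30 and 9.45 in snf1Δtor1Δ. Under glucose limitation the arrays of snf1Δ and snf1Δtor1Δ were below those of the reference and tor1Δ, without overlap.

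Thus GSH1, like STR3, was lower without SNF1 in C-lim, with -0.26 ± 0.074 (adjusted p = 0.00482) in snf1Δ and -0.48 ± 0.074 (adjusted p = 1.93e-05) in snf1Δtor1Δ. With only the groups compared in the fit, the first had an adjusted p of 0.0647. Its rise in N-lim was 0.83 in snf1Δtor1Δ, 0.50 in snf1Δ and 0.30 in the reference. GSH2 went the other way in C-lim, higher in snf1Δ by 0.21 (adjusted p = 0.0173), a call lost with each array centred and with a replicate block (adjusted p up to 0.0842). The call on GSH2 between media in the reference was lost with the replicate number as a block (adjusted p = 0.0829).

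Of the 5 regulators, MET30 was higher and MET28 and MET31 lower in N-lim than in C-lim in the reference. MET30 (YIL046W), the F-box subunit that restrains Met4, rose in N-lim in all 4 strains, by 0.15 to 0.22. All 4 calls were lost with each array centred, with adjusted p up to 0.252 in the reference and 0.366 in tor1Δ over all settings. In the reference the call was also lost with the replicate number as a block (adjusted p = 0.0967) and in the same fit without the block (0.0539). In C-lim, MET30 was at 9.18, 9.11 and 9.04 in the reference, at 9.05, 9.13 and 8.87 in snf1Δ, at 9.04, 9.02 and 9.08 in tor1Δ and at 9.24, 9.18 and 9.04 in snf1Δtor1Δ. In N-lim, MET30 was at 9.19, 9.39 and 9.34 in the reference, at 9.20, 9.23 and 9.22 in snf1Δ, at 9.20, 9.18 and 9.20 in tor1Δ and at 9.43, 9.32 and 9.36 in snf1Δtor1Δ. The groups of both media overlapped in part, and 0 of the 6 comparisons of a deletion strain with the reference called it.

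MET28, a leucine-zipper partner of Met4, fell in N-lim in all 4 strains, with -0.25 in the reference and -0.59 in snf1Δ, and in N-lim was lower than the reference in all 3 deletion strains, with -0.22, -0.22 and -0.46. The call on MET28 in tor1Δ was lost under 7 settings and in 17 of 24 fits that left out 1 array (adjusted p up to 0.318). MET31, 1 of the paired zinc-finger factors, was lower in N-lim in the reference (-0.56, adjusted p = 7.26e-05) and was higher than the reference in N-lim in tor1Δ (0.46, lost under 3 settings with adjusted p up to 0.143) and snf1Δtor1Δ (0.62). MET32, its partner, was lower than the reference in snf1Δtor1Δ in C-lim (-0.27, adjusted p = 0.00828, lost under 2 settings with adjusted p up to 0.241).

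MET4 (YNL103W), the activator itself, passed no test in any of the comparisons of groups. In C-lim, MET4 was at 9.33, 8.58 and 9.55 in the reference, at 9.01, 8.39 and 9.25 in snf1Δ, at 9.34, 8.89 and 9.33 in tor1Δ and at 9.19, 8.89 and 9.28 in snf1Δtor1Δ. In N-lim, MET4 was at 9.32, 8.77 and 9.46 in the reference, at 9.13, 8.996 and 9.33 in snf1Δ, at 9.53, 8.96 and 9.37 in tor1Δ and at 9.44, 8.97 and 9.35 in snf1Δtor1Δ. The low array was in every group the one whose number lies between the other 2, and the groups overlapped throughout.

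This pattern was looked at after the values were seen. Over all genes, 152 were lowest on the middle-numbered array in all 8 groups, against 1 on the lowest-numbered and 2 on the highest-numbered, and MET4 was the only member among them. A term for the number's order was called for 345 genes (6.33%), 2 of them members: MET4, with a difference of -0.479 between the middle-numbered and the lowest-numbered arrays (adjusted p = 0.000169), and STR3, at 0.116 (adjusted p = 0.0393). CBF1, the DNA-binding partner of Met4, was chosen after its values were seen and had the same pattern (-0.426, adjusted p = 0.000169). The sources used here do not say what the number stands for, and what sets these arrays apart was not tested.

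**Figure D4:**
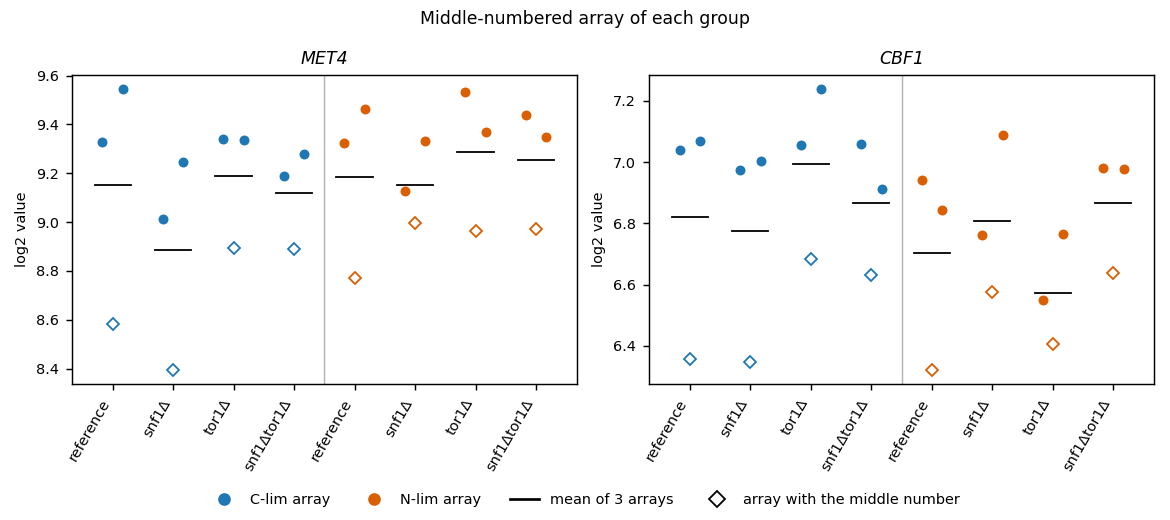
Log2 value of MET4 and of CBF1 on each array (points) by strain and medium, with means of 3 arrays (bars); open diamonds are the arrays whose number lies between the other 2 of their group. The diamond is the lowest point in all 8 groups for both genes.

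The block of the number's order and the setting without the middle-numbered arrays were chosen after the MET4 values were seen. Their tests on MET4 are therefore not independent of those values. With the block, the change of MET4 in snf1Δ against the reference in C-lim was -0.27 (adjusted p = 0.043). The test without it gave an adjusted p of 0.39 and an interval of -0.81 to 0.27. With the middle-numbered arrays left out the change was -0.309 (adjusted p = 0.0305). In snf1Δ the difference of MET4 between N-lim and C-lim, 0.27, had an adjusted p of 0.0487 with the block and 0.41 without it. With the middle-numbered arrays left out that difference was 0.099 (adjusted p = 0.497).

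The effect of SNF1 deletion on the pathway differed between the media. Of the 32 genes, 26 passed the test of the difference itself, the effect of snf1Δ in N-lim minus its effect in C-lim, 23 lower and 3 higher, where 47.2% of all genes were called, 31% lower and 16.2% higher. With each array centred, 19 were lower and 4 higher. All 8 genes of activation and reduction were among the lower, from -0.87 for MET8 and -0.86 for MET3 to -0.33 for MET14, whose call was lost under 3 settings (adjusted p up to 0.0768). The 3 genes with a positive difference were MMP1 (2.57 ± 0.28, adjusted p = 7.95e-07), MHT1 (1.58 ± 0.30, adjusted p = 0.000292) and STR3 (1.15 ± 0.087, adjusted p = 7.31e-09). The scatter plot of the SNF1 effect in the 2 media shows these 3 apart from the rest.

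**Figure D5:**
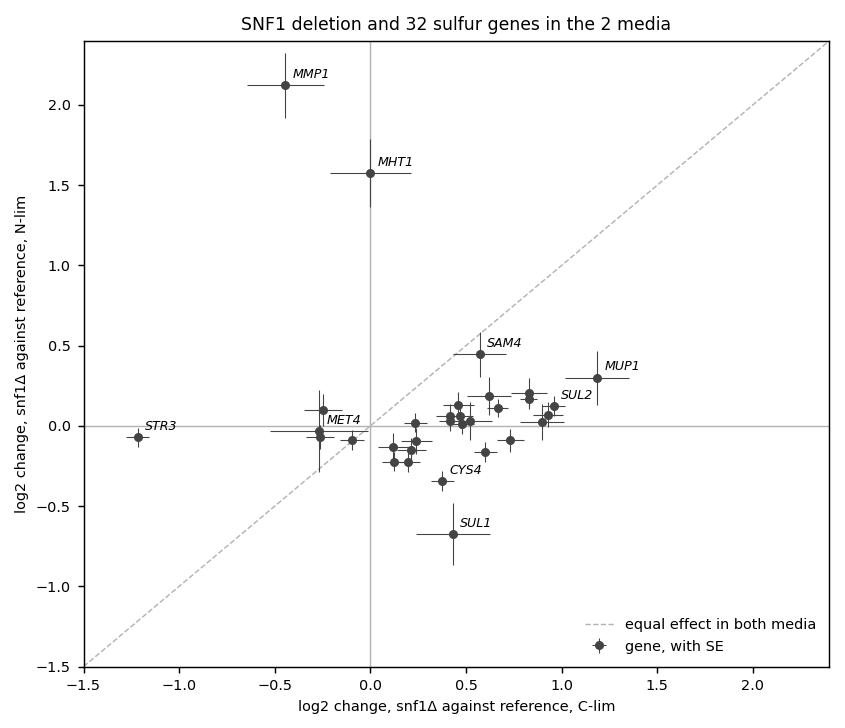
Log2 change of the 32 genes in snf1Δ against the reference in C-lim (x axis) and in N-lim (y axis), each point a gene with its SE; the dashed line marks an equal effect. Most genes lie right of 0 and near 0 on the y axis, MMP1 and MHT1 lie high at 2.12 and 1.58 in N-lim, and STR3 lies left at -1.22 in C-lim.

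For tor1Δ the difference between media was called for 2 genes, both lower, where 0.973% of all genes were called (0.275% higher and 0.697% lower). SUL1 had a difference of -2.23 ± 0.28 (adjusted p = 0.000422) and CYS4 one of -0.40 ± 0.088 (adjusted p = 0.0379). The call on CYS4 was lost under centring, where its adjusted p was 0.173, with a replicate block (0.164), with only the compared groups in the fit (0.164) and without the middle-numbered arrays (0.0722). For snf1Δtor1Δ 22 genes were called, 17 lower and 5 higher (46.7% of all genes, 28.8% lower and 17.9% higher), led by MMP1 (3.41 ± 0.28), MHT1 (1.85 ± 0.30) and SUL1 (-1.34 ± 0.28). With each array centred, 15 were lower and 5 higher.

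Whether the deletions combine additively was tested as the genetic interaction, the change in snf1Δtor1Δ minus the sum of the changes in snf1Δ and tor1Δ. In C-lim 5 genes were called, all lower than the sum, where 5.74% of all genes were called (2.86% lower and 2.88% higher). They were SUL1 (-1.41 ± 0.28, adjusted p = 0.00467), MMP1 (-1.26 ± 0.28, adjusted p = 0.0122), SUL2 (-0.45 ± 0.087, adjusted p = 0.00436), CYS4 (-0.38) and MET28 (-0.31). For SUL1, snf1Δ gave 0.43 and tor1Δ -0.19 against the reference, neither passing, and snf1Δtor1Δ gave -1.17 ± 0.19 (adjusted p = 4.34e-05). The calls on MMP1 and MET28 were lost without the middle-numbered arrays (adjusted p = 0.0573 for MMP1, and up to 0.11 over all fits for MET28) and that on SUL2 with only the groups compared (0.0503), and 10 members were called without the reference array with number 10 in C-lim.

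In N-lim 0 members passed the same limma test, where 0.697% of all genes did (0.587% higher and 0.11% lower) and 6 members had an unadjusted p under 0.05. For SUL1 the N-lim value was 0.59 with an interval of 0.01 to 1.16 (adjusted p = 0.358), and for MHT1 -1.04 with an interval of -1.67 to -0.41 (adjusted p = 0.128).

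The other comparisons of snf1Δtor1Δ with a parent deletion were added after the data were seen. Against snf1Δ in C-lim 12 members were lower and 0 higher (17.2% of all genes called, 6.44% lower and 10.8% higher), led by SUL1, MMP1 (-1.02 ± 0.20) and MHT1 (-0.83 ± 0.21), the last 2 lost in some fits (adjusted p up to 0.0605 and 0.0959). Against snf1Δ in N-lim 1 was higher, MET31 (0.52), and 3 lower, SUL1 (-1.84 ± 0.19), MET28 (-0.23) and CYS4 (-0.21) (10.6% of all genes, 7.51% higher and 3.1% lower), and of these SUL1 alone kept its call in every fit. Against tor1Δ in N-lim 6 were higher, led by MMP1 (1.44 ± 0.20, adjusted p = 2.6e-05), and 2 lower (33.5% of all genes, 21.7% higher and 11.8% lower). That split was 1 higher and 3 lower with each array centred, and 4 members in all were called without the tor1Δ array with number 9.

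Across the 8 groups, the mean was highest in snf1Δ in C-lim for 12 of the 32 genes and lowest in tor1Δ in C-lim for 12 and in the reference in C-lim for 8. The same count was not made over all genes, and tor1Δ and the reference differed in C-lim by 1 called member. Ranges of the group means were 4.53 for SUL1, 3.64 for MHT1, 1.83 for SAM3, 1.68 for MUP1, 1.23 for CYS4 and 1.22 for STR3. Between the reference and tor1Δ in C-lim, the changes of the 32 genes ran from -0.267 for STR3 to 0.421 for SAM3.

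Beyond the 32 genes, 35 further genes of sulfur metabolism were measured. Between media in the reference 18 of them were higher and 9 lower in N-lim, 77.1% against 67.2% of all genes called (41.5% higher and 25.7% lower). In C-lim 15 were higher and 6 lower in snf1Δ than in the reference, 60% against 62.1% of all genes (40.5% higher and 21.6% lower). The genes that supply homoserine did not all move with MET2 between media. HOM3 (aspartate kinase) and HOM2 (aspartate semialdehyde dehydrogenase) were lower in N-lim in the reference (-0.95 and -0.80). HOM6 (homoserine dehydrogenase) was higher there by 0.41, the direction of MET2. In C-lim all 3 were higher in snf1Δ, by 0.66, 0.31 and 0.43. Of 7 genes of the methyl cycle and folate, 4 were higher in snf1Δ in C-lim and 0 lower, 57.1% called. Of all genes 62.1% were called, 40.5% higher and 21.6% lower. The largest changes of the 7 were those of MET13, a methylenetetrahydrofolate reductase (0.82 ± 0.092, adjusted p = 4.11e-07), and ADO1, adenosine kinase (0.62).

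Among these 35 genes, OPT1 and IRC7 had the widest changes between media in the reference. OPT1, a transporter of glutathione and small peptides, was at least 49.2-fold higher in N-lim than in C-lim in the reference, where its C-lim level was at the floor. IRC7, a beta-lyase that acts on cysteine conjugates, rose from 3.48 to 8.71 (5.23 ± 0.15, adjusted p = 1.6e-15), and in C-lim was higher in snf1Δ by 3.37 ± 0.15 (adjusted p = 2.96e-12). BDS1, an alkyl and aryl sulfatase, rose by 1.45 between media and was higher in snf1Δ in C-lim by 1.91. In N-lim 2 of the 35 were lower in tor1Δ than in the reference, OPT1 (-0.64) and the cysteine transporter gene YCT1 (-0.61, lost under 3 settings with adjusted p up to 0.133).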

How the data were processed

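Biotin-labelled total RNA from 24 chemostat cultures had been hybridized to Affymetrix yeast arrays, per the labels' protocols. The deposited log2 values were used as the authors left them; the submitters' processing notes name RMA and affy, without versions. Groups came from the genotype and medium labels and the titles.

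Of 5716 probe sets, 5498 were paired with 1 gene by the platform annotation and 218 with none. The brightest probe set was kept for the 47 genes that had several, which left 5449 genes, and RefSeq's table for assembly R64 gave 12 genes a newer symbol. Group means under log2 3 were taken as the floor.

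The 8 group means were fitted over all 24 arrays with limma 3.58.1 in R 4.3.3 (16 residual and 1.71 prior degrees of freedom). From this fit came 10 comparisons of groups and 5 interactions, with Benjamini-Hochberg adjustment over all genes within each and a threshold of 0.05. A further 4 comparisons were added after the data were seen. The method was tested on simulated data. The members, the lists of related genes and the tests were chosen with earlier results of these data known. Values on every array are given for members called with a change of at least 1 on the log2 scale in a comparison of groups, and for MET4, MET30, GSH1, SAM1 and SAM2. Up to 3 members an interaction are named with values, and up to 3 genes of each further list and comparison.

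The alternatives were centring each array, quantile normalization, leaving out genes under the 25th percentile of mean level (6.66; 1362 genes, 0 members), an intensity trend, the mean of probe sets, only the groups compared, a replicate block, and leaving out each array. A block of the number's order and leaving out the middle-numbered arrays were added after the data were seen. The labels do not say what the replicate numbers share. Deviations of equal-numbered arrays correlated over 0.1 in all 3 pairs for 3 of the 14 comparisons of groups: the media in the reference (0.231 to 0.372) and in snf1Δtor1Δ (0.12 to 0.199), and snf1Δ against the reference in N-lim (0.169 to 0.279). These were taken as paired and also fitted with the number as a block over only both groups, an alternative added after the data were seen. The other 11 did not meet this rule. In the 3 comparisons taken as paired, equal numbers also held equal places in the order of their groups. A shared number and a shared order therefore cannot be told apart there. Over all pairs of arrays from different groups, the median correlation was 0.199 for equal numbers and 0.195 for equal order. Reference and snf1Δ arrays in C-lim with numbers 10 and 11, which differ in order, gave -0.293 and -0.305. Protein and promoter sequences were not analysed here.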

Additional observations from a re-analysis of the deposited data

Results flagged for a closer look

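Results are listed here because the effect of a deletion differed between the media, or between strains, by a test of the difference itself (limma, Benjamini-Hochberg over all genes). The effect of snf1Δ differed between media for 26 of the 32 genes, where 47.2% of all genes were called. The largest differences, N-lim minus C-lim, were 2.57 for MMP1, 1.58 for MHT1 and 1.15 for STR3. The effect of tor1Δ differed for 2, SUL1 at -2.23 and CYS4 at -0.40, where 0.973% of all genes were called. The call on CYS4 was lost in some fits. The effect of snf1Δtor1Δ differed for 22, where 46.7% of all genes were called, with the largest at 3.41 for MMP1, 1.85 for MHT1 and -1.34 for SUL1. In C-lim snf1Δtor1Δ departed from the sum of the 2 deletions for 5, where 5.74% of all genes were called. The largest were -1.41 for SUL1, -1.26 for MMP1 and -0.45 for SUL2, and the calls on MMP1 and SUL2 were lost in some fits. Groups of 3 arrays were not tested for outlying arrays.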

How the results depend on the processing

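Each count of sulfur genes called was recomputed under 9 other settings and with each of the 24 arrays left out. No called change of a sulfur gene turned its sign, but the split for snf1Δtor1Δ against tor1Δ in N-lim went from 6 higher and 2 lower to 1 higher and 3 lower with each array centred. Below, the main count stands in brackets. For tor1Δ against the reference in C-lim (1) it was 0 with dim genes left out, with only the groups compared, with the replicate block and without the middle-numbered arrays. For snf1Δ against the reference in N-lim (9) it was 15 with only the groups compared and 4 without the middle-numbered arrays. For tor1Δ in N-lim (5) these 2 settings gave 2 and 1, and the replicate block 3. For the difference of the tor1Δ effect between media (2) it was 1 in both, and 1 with each array centred. The genetic interaction in C-lim (5) gave 3 without the middle-numbered arrays. Of the added comparisons, snf1Δtor1Δ against tor1Δ in N-lim (8) gave 4 with each array centred and 5 with only the groups compared, and snf1Δtor1Δ against snf1Δ in N-lim (4) gave 1 without the middle-numbered arrays.

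With 1 array left out, counts ran from 27 to 30, 16 to 22, 23 to 25 and 19 to 22 for the contrast of media in the reference, snf1Δ, tor1Δ and snf1Δtor1Δ. Against the reference in C-lim they ran from 23 to 27, 0 to 1 and 24 to 25 for snf1Δ, tor1Δ and snf1Δtor1Δ, and in N-lim from 6 to 9, 1 to 5 and 7 to 11. They ran from 22 to 28, 1 to 3 and 20 to 24 for the differences between media, and from 4 to 10 in C-lim and 0 to 1 in N-lim for the genetic interaction. For snf1Δtor1Δ against tor1Δ they ran from 23 to 27 in C-lim and 4 to 9 in N-lim, and against snf1Δ from 8 to 13 and 2 to 5. For tor1Δ in N-lim the count was 1, 3 and 2 without reference arrays 9, 10 and 11.

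Of the 276 calls on sulfur genes in the 19 comparisons, 200 were kept in every fit and 76 lost in at least 1, 74 under a setting and 57 without an array. Of the 266 calls on the further genes, 192 were kept in every fit. In the 3 comparisons taken as paired, the number as a block in a fit of only both groups gave 27 calls for the media in the reference (30 over all arrays). It gave 19 in snf1Δtor1Δ (22), and 10 for snf1Δ against the reference in N-lim (9). The same fit without the replicate block gave 27, 21 and 15. As a replicate block, fixed in 11 comparisons and random in 8, the numbers took the genes called from 58 to 8 for tor1Δ in C-lim and from 53 to 10 for its effect between media. The cause of these differences was not tested.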

Other observations

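Glutathione use and the salvage of methylthioadenosine, the sulfur product of polyamine synthesis, were covered by 9 and 5 further genes. GTT1, a glutathione transferase, was lower in N-lim than in C-lim in the reference, at -2.39 ± 0.073 (adjusted p = 2.75e-15), and in C-lim lower in snf1Δ than in the reference, at -2.55 ± 0.073 (adjusted p = 3.63e-15); these comparisons share the C-lim reference arrays. In snf1Δtor1Δ against tor1Δ in C-lim it was lower as well, at -2.22. All 9 genes of glutathione use passed in snf1Δ in C-lim, 6 lower, among them the glutaredoxin genes GRX1 (-0.57) and GRX2 (-0.52), and 3 higher, where 62.1% of all genes were called (21.6% lower and 40.5% higher). ECM38, which breaks glutathione down in the vacuole, rose in N-lim by 1.58 in the reference and 1.51 in snf1Δ.

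In the salvage of methylthioadenosine, 4 of 5 genes were lower in N-lim in the reference, where 67.2% of all genes were called and 25.7% were lower, led by ADI1 (-0.60), and UTR4 was higher (0.45). The call on MRI1, among the lower genes, was lost with the replicate number as a block (adjusted p = 0.171) and in the same fit without the block (0.114). UTR4 was higher in C-lim in snf1Δ (0.82 ± 0.057, adjusted p = 8.51e-10) and in snf1Δtor1Δ against tor1Δ (0.93), and in tor1Δ it was the 1 further gene called in C-lim (0.31, adjusted p = 0.0126, lost under 4 settings with adjusted p up to 0.334).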
